A study of Homo sapiens with 6 samples.

Results

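The B-cell lineage transcription factors described here are 10 genes, IRF4, IRF8, SPI1, SPIB, PAX5, EBF1, BCL6, PRDM1, POU2AF1 and BACH2, chosen by name from 23284 gene symbols. Each was present as 1 record in the expression tables of all 6 samples. RNA came from GM12873, an established B-lymphoblastoid line, made by infecting B lymphocytes with Epstein-Barr virus. The control group was 3 samples of fresh cells taken directly into the extraction reagent. The lyophilized group was 3 samples dried in 0.1 M trehalose, a sugar that protects dried membranes and proteins, and kept for 2 weeks at room temperature. The samples formed 3 pairs, each of 1 control and 1 lyophilized sample, and all came from the same line grown in the same medium. It was not stated whether the pairs were separate cultures, so p-values measure the spread between these samples, which may be technical. The study proposes that some differences shared within pairs reflect culture conditions or the state of the cells at harvest. The line is 1 donor's cells and stands for no other B cell.

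Poly(A) RNA was sequenced as single reads of 75 bases and expressed as FPKM, fragments scaled to transcript length and to the mapped reads of the sample, a unit in which genes can be compared with each other. The 8 B-cell markers were present in every sample, with a summed level of 4611 to 6484 FPKM in controls and 4597 to 6418 FPKM in lyophilized samples. CD3G, a T-cell marker, KLRD1, an NK-cell marker, and HBB, a red-cell marker, were listed at 0 in all samples. Of the 10 T-cell and NK-cell markers 7 stayed below 1 FPKM, as did 7 of the 10 myeloid markers, all 6 erythroid and megakaryocyte markers and all 4 fibroblast and epithelial markers. TCF7, a T-cell regulator, was the highest of the other T-cell and NK-cell markers at 24.3 to 56.7 FPKM. In the same list NKG7 had 4.35 to 7.74 FPKM and GATA3 1.86 to 3.80 FPKM. Among the myeloid markers CD33 had 2.60 to 3.21 FPKM, ITGAM 1.97 to 2.64 FPKM and S100A9 2.13 to 5.15 FPKM. As these are bulk samples, fewer cells of a type and less RNA per cell cannot be told apart.

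A B cell is held in its identity by a small network of transcription factors. EBF1 and PAX5 switch on B-cell genes and keep other fates off, PU.1 (encoded by SPI1) and Spi-B (SPIB) are ETS factors that bind DNA together with IRF4 or IRF8, and OCA-B (POU2AF1) is a coactivator that joins the octamer-binding factors Oct-1 and Oct-2. BCL6 drives the germinal-centre state and BACH2 holds back plasma-cell differentiation. On strong activation IRF4 rises and induces Blimp-1 (PRDM1), which shuts down PAX5, BCL6 and the rest of the mature programme. Lymphoblastoid lines are known as activated, proliferating blasts.

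The genes lie, on hg19, at chr6:391739-411443 (IRF4), chr16:85932774-85956211 (IRF8), chr11:47376409-47400127 (SPI1), chr19:50922195-50934309 (SPIB), chr9:36838531-37034476 (PAX5), chr5:158122923-158526788 (EBF1), chr3:187439165-187463513 (BCL6), chr6:106534195-106557814 (PRDM1), chr11:111222981-111250157 (POU2AF1) and chr6:90636247-91006627 (BACH2). IRF4, IRF8, SPIB and PRDM1 are on the plus strand and the other 6 on the minus strand. The values of a gene join reads from all its exons, UTRs included.

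The DNA just before the start sites is shown for the 4 factors on which the comparison of activated and mature states rests, because these factors bind the regulatory DNA of one another. RefSeq promoter sequences (GRCh38.p14) were matched for 8 of the 10 factors, at 11 start sites. SPI1 and POU2AF1 had no entry. Each line gives the 150 bases upstream of the start, 5′ to 3′ on the gene's strand, and capitals mark a match to the core shared by ETS-IRF composite elements, GGAANNGAA. The PRDM1 start shown is the one of its 2 starts that held a match.
IRF4, chr6:391602-391751, plus strand: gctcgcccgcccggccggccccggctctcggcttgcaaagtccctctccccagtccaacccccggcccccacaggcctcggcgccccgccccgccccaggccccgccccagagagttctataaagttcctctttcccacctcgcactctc
PRDM1, chr6:106098791-106098940, plus strand: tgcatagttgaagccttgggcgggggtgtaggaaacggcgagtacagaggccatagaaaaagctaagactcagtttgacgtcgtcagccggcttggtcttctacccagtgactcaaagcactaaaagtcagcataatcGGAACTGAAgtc
PAX5, chr9:37034269-37034418, minus strand: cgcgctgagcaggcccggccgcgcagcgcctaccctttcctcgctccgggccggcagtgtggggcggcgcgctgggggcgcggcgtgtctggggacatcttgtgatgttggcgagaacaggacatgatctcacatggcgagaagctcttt
EBF1, chr5:159097957-159098106, minus strand: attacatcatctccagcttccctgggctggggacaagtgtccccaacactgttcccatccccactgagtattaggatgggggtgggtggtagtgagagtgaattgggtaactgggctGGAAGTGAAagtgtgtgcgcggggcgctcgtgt

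Within 250 bases upstream, searched on both strands, the composite core was found in EBF1, where it began 33 bases before the start. It was also found at the PRDM1 start shown, where it began 12 bases before that start. The other PRDM1 start, not shown, held no match. The same letters were found in 6.58% of 35116 promoters. The EBF core CCCNNGGG was found in SPIB, 202 bases before the start, and in 17.1% of all promoters. The octamer ATGCAAAT, the PU.1 box GAGGAAGT and the IRF core GAAANNGAA were found in none of the 11 windows, against 1.63%, 2.17% and 6.88% of all promoters. Composite and IRF cores can overlap. A match is a run of letters only.

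In the control samples the factors fell into 4 ranges of level. POU2AF1 and the interferon regulatory factors were abundant, the ETS factors and PAX5 intermediate, PRDM1 and EBF1 low, and BCL6 and BACH2 at or near 0. POU2AF1 was highest, at 206 ± 20.8 FPKM (mean ± SD, n = 3, as in all such values here), above 97.5% of the tested genes. IRF4 followed at 148 ± 30.7 FPKM and IRF8 at 88.1 ± 8.95 FPKM, above 96.4% and 93.2% of the tested genes. SPIB had 32.9 ± 8.50 FPKM, PAX5 25.5 ± 2.60 FPKM and SPI1 18.7 ± 3.34 FPKM. PRDM1 had 3.59 ± 0.348 FPKM and EBF1 2.79 ± 0.309 FPKM, above only 21.5% and 16.1% of the tested genes.

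In this order the control samples of neighbouring factors overlapped in 2 cases. The samples of SPIB and PAX5 overlapped, and so did those of BACH2 and BCL6. PRDM1 and EBF1 were close, with a ratio of means of 1.28, but the lowest PRDM1 value, 3.30 FPKM, lay above the highest EBF1 value, 3.13 FPKM. The widest step among the 8 detected factors was the 5.20-fold one from SPI1 down to PRDM1.

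BCL6 was listed at 0, 0.0184 and 0 FPKM in control samples 1, 2 and 3 and at 0.0402, 0 and 0.166 FPKM in their lyophilized partners. BACH2 was listed at 0.0329, 0 and 0.00993 FPKM in the controls and at 0.0217, 0.00447 and 0 FPKM in the lyophilized samples. The tables hold no read counts, but the smallest steps of single-exon genes put 3 reads at 0.0445 to 0.0846 FPKM for BCL6 and at 0.0160 to 0.0303 FPKM for BACH2. BCL6 passed the 3 reads of its own sample in the lyophilized sample of pair 3 alone, with an estimated 9.06 reads. BACH2 did so in both samples of pair 1, with an estimated 3.25 reads in the control and 4.07 in the lyophilized sample. No fold change is given for either. None of 31 genes used by every cell was listed at 0 in any sample.

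**Figure D1:**
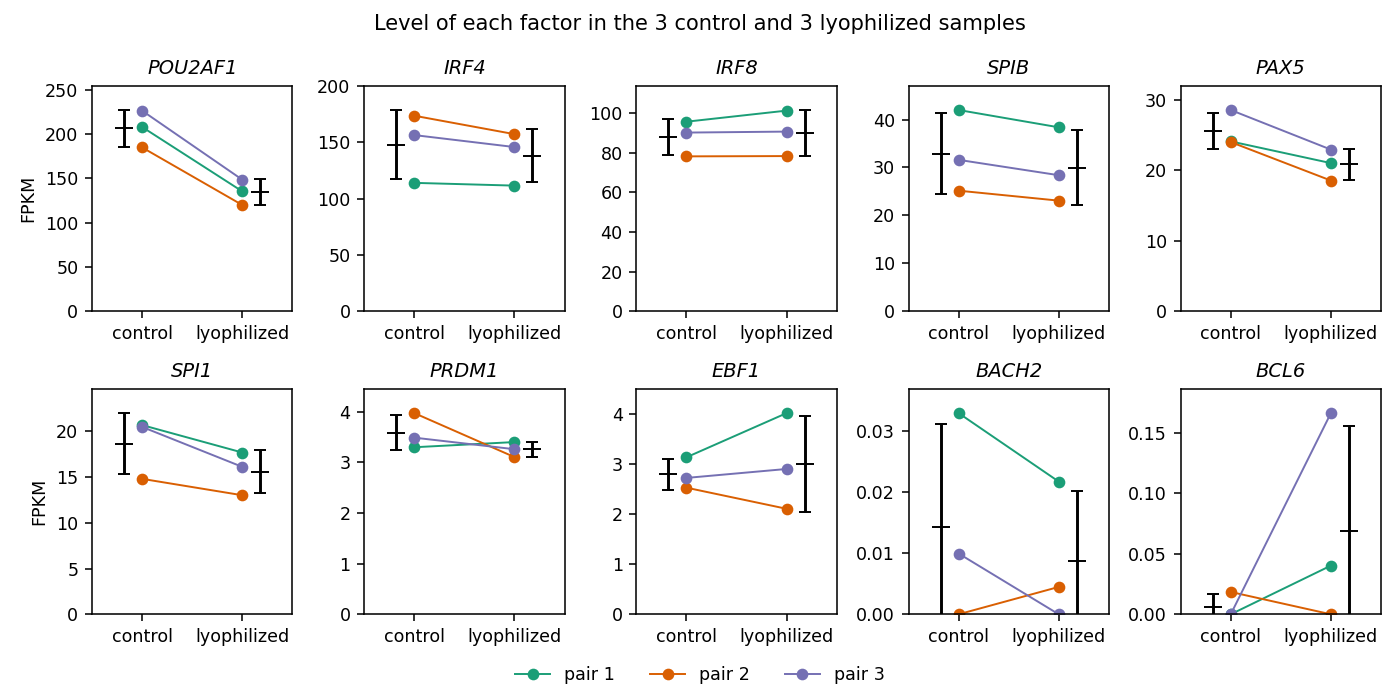
FPKM (vertical axes, from 0, with a scale of their own in each panel) of the 10 factors in the control and lyophilized sample of each pair, joined by a line and coloured by pair, with the mean and SD of each group in black (bars that pass below 0 end at the axis). POU2AF1 and PAX5 are the factors whose 3 lyophilized values all lie below their 3 control values, and BACH2 and BCL6 stay below 0.2 FPKM.

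Lyophilization was compared with the control on log2(FPKM + 0.1) with limma, over 11134 genes with a mean above 1 FPKM in either group. BCL6 and BACH2 did not pass this filter. Of the 8 factors tested, 0 passed an adjusted p of 0.05 without a term for the pair, and 1, POU2AF1, had an unadjusted p under 0.05. Of all 11134 tested genes 0.575% were called, and 1573 had an unadjusted p under 0.05 by limma without the block. With the replicate block, which compares each lyophilized sample with its own control, 3 of 8 passed, all lower after lyophilization. These were POU2AF1, PAX5 and SPI1. In that fit 30.7% of all tested genes were called, with 14.9% called as lower and 15.9% as higher. When transcript GC content was also corrected for, 1 of 8 passed, POU2AF1, against 17.2% of 9688 genes, of which 6.98% were lower and 10.2% higher.

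POU2AF1 had 208, 185 and 226 FPKM in controls 1, 2 and 3 and 135, 120 and 148 FPKM in the lyophilized samples of the same pairs. The groups did not overlap, and the lyophilized samples held 0.650, 0.648 and 0.656 of their controls, nearly the same share in each pair. The log2 fold change was -0.62 (SE 0.132, adjusted p = 0.103 by limma without the block), which is a change of -34.8%. With the replicate block the SE was 0.0429 and POU2AF1 fell with an adjusted p of 0.000103 by limma. With GC correction the log2 fold change was -0.49 (95% interval -0.58 to -0.39, adjusted p = 0.000563 by limma). The call with the block held without each pair in turn, and POU2AF1 was lower under all alternatives tried.

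PAX5, which maintains the commitment of B cells, had 24.1, 24.0 and 28.5 FPKM in the controls and 21.0, 18.5 and 22.9 FPKM in the lyophilized samples. The highest lyophilized value lay just below the lowest control, so the groups did not overlap. The log2 fold change of -0.29 had an SE of 0.129 and an adjusted p of 0.357 by limma without the block. With the replicate block PAX5 fell with an adjusted p of 0.0106 by limma. That call was lost without pair 3, without the filter on low values and after GC correction (log2 fold change -0.16, adjusted p = 0.126 by limma), and when transcript length was corrected for as well the log2 fold change was 0.0079. Non-overlapping groups with the lyophilized side lower were seen for 2 of the 8 factors and for 12.6% of all tested genes.

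SPI1 had 20.7, 14.8 and 20.5 FPKM in the controls and 17.7, 13.0 and 16.1 FPKM in the lyophilized samples. Each lyophilized sample was below its own control, while the groups overlapped because pair 2 was low on both sides. The log2 fold change was -0.25 (SE 0.176, adjusted p = 0.529 by limma without the block). SPI1 fell in the fit with the replicate block (adjusted p = 0.0243 by limma), but not without pair 1, without pair 3 or without the filter on low values, and after GC correction its log2 fold change was 0.076 (adjusted p = 0.380 by limma). With length corrected too it was -0.097 (adjusted p = 0.315 by limma). The SPI1 transcript has the highest GC content of the 10 factors.

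SPIB, the nearest relative of SPI1 here, had 42.0, 25.2 and 31.6 FPKM in the controls and 38.4, 23.1 and 28.4 FPKM in the lyophilized samples. Its lyophilized to control ratios, 0.914, 0.917 and 0.898, lay close together across pairs and nearer to 1 than those of POU2AF1. SPIB did not pass in either fit (adjusted p = 0.816 without and 0.0950 with the replicate block, limma). The interval of its fold change was 0.833 to 0.995 with the block.

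IRF4 had 114, 174 and 156 FPKM in the controls and 112, 157 and 146 FPKM in the lyophilized samples. All lyophilized samples were below their controls, by ratios of 0.978, 0.906 and 0.932, and the groups overlapped widely. The adjusted p was 0.852 without and 0.150 with the replicate block by limma, and the interval of the fold was 0.873 to 1.01 with the block. After GC correction the interval for IRF4 was 0.859 to 0.974 (log2 fold change -0.13, adjusted p = 0.0579 by limma). With length corrected too the log2 fold change was -0.090 (adjusted p = 0.160 by limma). IRF8 had 95.7, 78.2 and 90.2 FPKM in the controls and 101, 78.4 and 90.7 FPKM in the lyophilized samples. It was the factor nearest to its controls, with ratios of 1.06, 1.00 and 1.01 and an interval of the fold of 0.948 to 1.10 with the block (adjusted p = 0.643 by limma).

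PRDM1 had 3.30, 3.97 and 3.49 FPKM in the controls and 3.40, 3.11 and 3.26 FPKM in the lyophilized samples. Its largest difference was in pair 2, and the direction differed between pairs. EBF1 had 3.13, 2.52 and 2.72 FPKM in the controls and 4.01, 2.10 and 2.90 FPKM in the lyophilized samples, a wider spread after lyophilization with 2 pairs higher and 1 lower. An estimated 182 to 357 reads stood behind each PRDM1 value and 182 to 442 behind each EBF1 value, against 6410 or more for POU2AF1. The intervals of the fold with the block were 0.757 to 1.10 for PRDM1 and 0.840 to 1.30 for EBF1 (adjusted p = 0.411 and 0.758, limma). Changes inside these intervals remain possible, and the part of depth in their width was not tested. After GC correction the log2 fold changes were -0.20 for PRDM1 and -0.14 for EBF1 (adjusted p = 0.207 and 0.392, limma).

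**Figure D2:**
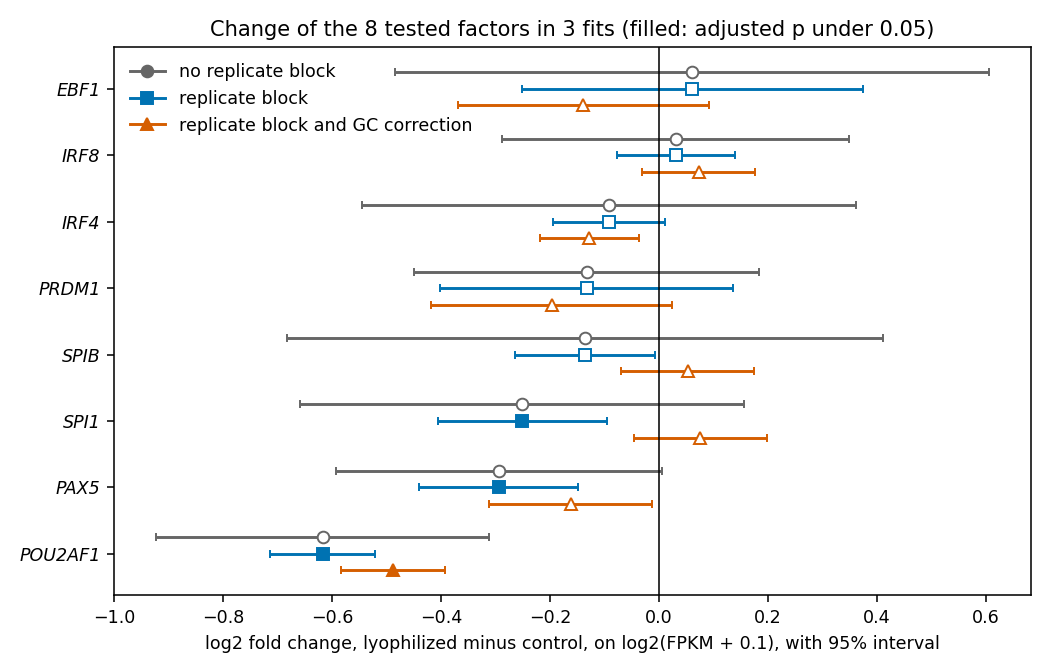
Log2 fold change, lyophilized minus control (horizontal axis, with 95% interval), of the 8 tested factors without the replicate block (grey), with it (blue) and with it after GC correction (orange). Filled symbols passed an adjusted p of 0.05. POU2AF1 stays between -0.49 and -0.62 in the 3 fits, while SPI1 moves from -0.25 to 0.076 once GC content is corrected for (-0.097 with length corrected too, not drawn).

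For several factors the span of the 3 pair means was larger than the mean lyophilized minus control difference. A span from lowest to highest and a mean difference are unlike measures, so they are set side by side as a description only. The mean log2 levels of the 3 pairs spanned 0.73 for SPIB and 0.55 for IRF4, while their mean lyophilized minus control differences were -0.14 and -0.092. EBF1 spanned 0.60 across pairs, SPI1 0.46 and IRF8 0.33. IRF4 was lowest in pair 1, where SPIB, IRF8, SPI1 and EBF1 were highest. POU2AF1 was the reverse case, with a span of 0.30 between pairs against a difference of -0.62, and PAX5 had nearly equal values, 0.28 and -0.29. Of the 8 factors 5 were lower in all 3 pairs and 1 was higher in all 3, against 28.8% and 33.4% of all tested genes. Estimated depth relative to the control of pair 1 was 1.38 and 1.66 in the other two controls and 1.54 to 1.90 in the lyophilized samples. The part of depth in these values was not tested.

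The balance between the activated and plasma-cell factors (IRF4, PRDM1) and the mature factors (PAX5, EBF1, BCL6, BACH2) was read in each sample as the difference of their mean log2(FPKM + 0.1). The controls gave 4.29, 4.84 and 4.61 and the lyophilized samples 4.16, 4.79 and 4.25, positive in all 6. The sign compares levels of different genes and no other B cell was measured, so it does not assign a cell state. The size of this balance rested on BCL6 and BACH2, which sit at the pseudocount. With PAX5 and EBF1 alone on the mature side it was 1.43 ± 0.295 in the controls and 1.44 ± 0.362 after lyophilization. The pair differences were then -0.070, 0.067 and 0.015, so the balance did not move one way. No p is given, since the factors were chosen with earlier results of these data known.

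Single ratios showed how uneven the 2 sides are. FPKM of IRF4 was 4.73, 7.24 and 5.48 times that of PAX5 in the controls and 5.31, 8.48 and 6.36 times after lyophilization, higher in each lyophilized sample than in its partner. On the log2 scale the mean difference was 0.20, but it was 0.034 after GC correction and -0.098 when length was corrected for as well, so its direction was not stable. By contrast PRDM1, the other factor of the activated side, reached only 0.137, 0.166 and 0.122 of PAX5 in the controls. Against EBF1, PRDM1 stood at 1.05, 1.57 and 1.28 in the controls and at 0.848, 1.48 and 1.13 after lyophilization. The mean log2 difference of this ratio was -0.19, but -0.057 after GC correction and -0.046 with length corrected too. IRF4 exceeded PRDM1 by 41.0 ± 5.64 times in the controls and 42.7 ± 9.09 times after lyophilization. Thus IRF4 and PRDM1 lay further apart than IRF4 and PAX5 in every sample. PAX5 stood 9.23 ± 1.42 times above EBF1 in the controls and 7.32 ± 1.86 times after lyophilization. After GC correction the log2 fold changes of PAX5 and EBF1 were close, at -0.16 and -0.14. With length corrected too they were 0.0079 and -0.13, so the direction of this ratio was not stable either.

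**Figure D3:**
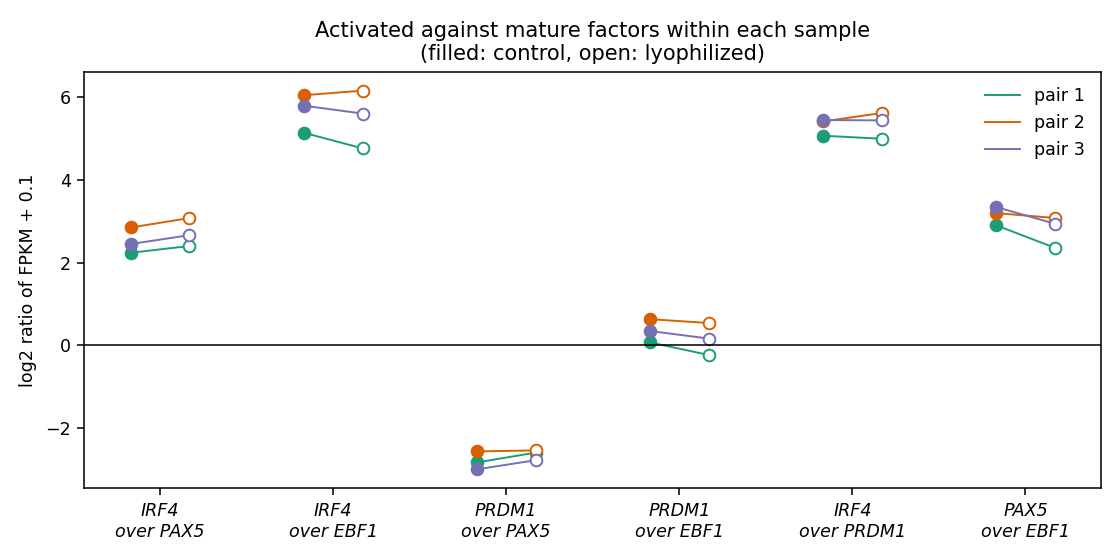
Log2 ratio of FPKM + 0.1 (vertical axis) between factors of the activated and mature sides, in the control (filled) and lyophilized (open) sample of each pair. The IRF4 to PAX5 ratio rises slightly along each of the 3 lines, by 0.16 to 0.23 without GC or length correction. Its mean difference was 0.034 with GC correction and -0.098 with length corrected too (not drawn). The PRDM1 to EBF1 ratio lies between -0.23 and 0.63.

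The closeness of other genes to 4 of these factors was described by Pearson's r of log2(FPKM + 0.1) over the 6 samples, among 91 tested genes of the factors' lists. Nearest to IRF4 were DERL3 (r = 0.944), of endoplasmic reticulum protein degradation, and TCL1A (r = 0.917), a coactivator of the kinase AKT. Nearest to PAX5 were CREB3L2 (r = 0.984) and TLE3 (r = 0.945), the latter a Groucho corepressor. IKZF1 (r = 0.929), which encodes Ikaros, and IRF8 (r = 0.920) were nearest to EBF1. PRDM1 had no close neighbour, with SDC1 (r = 0.576) and POU2F2 (r = 0.563) first. The 6 samples share pairs and treatment, so these values describe the samples only.

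Across genes, the fold change after lyophilization went with transcript GC content. Over 9688 tested genes with an annotated transcript, Spearman's rho was -0.777, given as a description since genes are not independent replicates. The factors cover this range, from 41.1% GC in the longest transcript of EBF1 and 45.6% in PRDM1 through 47.0% in IRF4, 50.1% in IRF8, 53.4% in POU2AF1, 53.6% in PAX5 and 56.9% in SPIB to 65.2% in SPI1. Genes within 2 percentage points of SPI1 had a median log2 fold change of -0.27, beside -0.25 for SPI1 itself. Those near SPIB had a median of -0.14, as SPIB did. POU2AF1 stood apart from genes of its own GC content, whose median was -0.089, and 1.79% of those 1176 genes were lower than POU2AF1. PAX5, at nearly the same GC content, had 16.8% of its neighbours below it. For PRDM1 the share below was 7.94%, for EBF1 12.3% and for IRF4 15.3%.

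**Figure D4:**
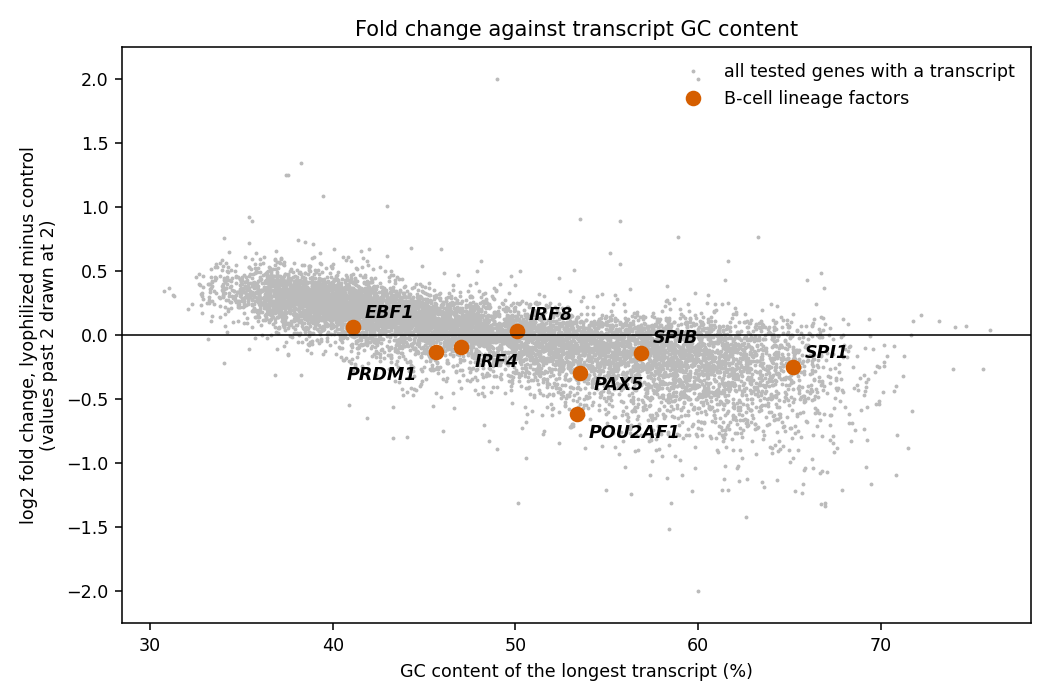
Log2 fold change, lyophilized minus control, against the GC content of the longest transcript, for 9688 tested genes (grey) and the 8 tested factors (orange). The cloud slopes down to the right, with SPI1 and SPIB near its middle and POU2AF1 at its lower edge.

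The other regulators of the B lineage, 27 genes of which 23 were tested, were called by limma with the replicate block as lower in 7 cases and higher in 2, against 14.9% and 15.9% of all tested genes. The median log2 fold change was -0.028, beside 0.039 for all tested genes. Of the E proteins, which act beside EBF1 and PAX5, TCF3 and TCF4 were called in opposite directions with the block. TCF12 was not called (log2 fold change 0.24, adjusted p = 0.0868, limma with the block). TCF3 (E2A) had 49.9 ± 4.30 FPKM in controls and 36.3 ± 3.57 FPKM after lyophilization and fell with the block (log2 fold change -0.46, adjusted p = 0.00127), while TCF4 rose from 7.06 ± 0.781 to 8.66 ± 0.450 FPKM (0.30, adjusted p = 0.0452). RUNX3, a Runt factor, fell from 53.7 ± 5.21 to 39.6 ± 3.82 FPKM, and NFATC1, a factor of calcium signalling, and ZBTB7A fell as well, by 0.57 and 0.39 on the log2 scale. MEF2C rose by 0.29. ID3, an inhibitor of E proteins, was the most abundant of the list at 118 ± 15.3 FPKM in controls and 118 ± 13.9 FPKM after lyophilization. None of the list passed without the block (limma), and with GC correction 3 were lower and 1 higher, against 6.98% and 10.2% of all genes in that fit. The 3 were TCF3, RUNX3 and NFATC1 and the 1 was ID3, whereas TCF4 and MEF2C had log2 fold changes of 0.022 and 0.013. POU2F2 encodes Oct-2, which OCA-B binds. Chosen after its values were seen, POU2F2 had 20.5 ± 0.956 FPKM in controls and 16.0 ± 2.28 FPKM after lyophilization, with an adjusted p of 0.267 without the block, 0.00742 with it and 0.0955 with GC correction (limma).

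Proteins that work with these factors were called in 6 of 17 cases with the block, 5 lower (14.9% of all tested genes) and 1 higher (15.9%), with a median log2 fold change of -0.035. Without the block 1 of the 17 passed by limma, against 0.575% of all tested genes. MAFK and MAFG, small Maf partners of BACH2, fell by 0.51 and 0.32, and TLE3 fell by 0.48 on the log2 scale. With GC correction the calls of MAFK (adjusted p = 0.101) and MAFG (adjusted p = 0.292, limma) were lost. HDAC2 rose by 0.34, a call lost with GC correction (adjusted p = 0.586, limma). BATF, which pairs with IRF4 on composite AP-1 sites, had 108 ± 10.4 and 111 ± 12.7 FPKM, JUNB 104 ± 33.3 and 98.2 ± 39.8 FPKM, and HDAC1 99.0 ± 10.7 and 97.7 ± 9.97 FPKM without and with lyophilization. With GC correction 2 were lower, TLE3 among them, against 6.98% of all genes in that fit. Another 4 were higher, BATF, BATF3, JUNB and HDAC3, against 10.2%. The median was 0.056, beside 0.022 for all genes in that fit.

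The genes of B-cell identity, which PAX5 and EBF1 sustain, were called with the block as lower in 6 of 16 cases (14.9% of all tested genes) and higher in 1 (15.9%), with a median log2 fold change of -0.098. With GC correction, of 15 genes, 3 were lower (6.98% of all genes in that fit) and 2 higher (10.2%), with a median of 0.0029. The 3 were TNFRSF13C, CIITA and BLNK, and the 2 were CD79A and CD79B. TNFRSF13C, the BAFF receptor, fell from 54.7 ± 15.2 to 35.3 ± 7.56 FPKM (-0.62, adjusted p = 0.000347 by limma with the block), and CIITA, the master regulator of MHC class II genes, fell from 18.9 ± 0.965 to 12.9 ± 0.843 FPKM (-0.55, adjusted p = 0.00169 by limma with the block). CD22 fell by 0.26 on the log2 scale, a call lost with GC correction. MS4A1, which encodes CD20, rose from 296 ± 36.6 to 353 ± 52.6 FPKM with the block, again lost with GC correction (adjusted p = 0.599, limma). CD79A, of the B-cell receptor, had 323 ± 71.3 and 297 ± 55.7 FPKM (log2 fold change -0.12 with the block and 0.13 with GC correction, adjusted p = 0.0726 and 0.0487, limma). FCER2, which encodes CD23, had 481 ± 146 and 427 ± 130 FPKM and was lower in all 3 pairs. Its call with the block (log2 fold change -0.17, adjusted p = 0.0123, limma) was lost with GC correction (0.055, adjusted p = 0.426, limma). None of the 16 genes passed without the block.

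The plasma-cell programme, which PRDM1 and IRF4 promote, was present at mixed levels. Of 18 genes 4 were lower and 3 higher with the block, against 14.9% and 15.9% of all tested genes, and the median log2 fold change was -0.0025. MZB1, SSR4 and SEC11C, of the secretory pathway, had 211 ± 7.66, 266 ± 60.0 and 119 ± 22.3 FPKM in the controls. JCHAIN, which joins polymeric antibodies, rose from 56.3 ± 7.73 to 68.7 ± 7.54 FPKM, SEC11C to 139 ± 17.1 FPKM, and TNFRSF17, the receptor BCMA, from 73.2 ± 4.94 to 85.6 ± 8.68 FPKM, all with the block only. The calls of SEC11C and TNFRSF17 were lost with GC correction, and JCHAIN had no GC value. SDC1, which encodes the plasma-cell antigen CD138, fell from 25.3 ± 0.318 to 22.0 ± 0.928 FPKM with the block. ZBTB32, CREB3L2 and the stress sensor ERN1 fell by 0.30, 0.30 and 0.40 on the log2 scale. With GC correction, of 17 genes, 1 was lower, CREB3L2, and 5 were higher, MZB1, SSR4, CD27, TXNDC5 and PRDX4, against 6.98% and 10.2% of all genes in that fit.

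The germinal-centre programme, in which BCL6 acts, was partly silent. Of its 13 genes 10 were tested, and MME, which encodes CD10, was listed at 0 in all 3 controls. TCL1A had 116 ± 23.7 FPKM in the controls, MARCKSL1 136 ± 20.0 FPKM and GCSAM 72.8 ± 10.4 FPKM. With the block 1 was lower, the receptor gene S1PR2 (-0.37), and 2 were higher, STAP1 (0.51) and GCSAM (0.19), against 14.9% and 15.9% of all tested genes. The median log2 fold change was -0.0075, and none passed without the block. With GC correction the calls of S1PR2 (adjusted p = 0.195) and STAP1 (0.23, adjusted p = 0.0581, limma) were lost, and GCSAM had no GC value. In that fit 1 of 9 genes was called, TCL1A, as higher (0.21, adjusted p = 0.00927, limma). Of all genes in that fit 10.2% were called as higher.

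**Figure D5:**
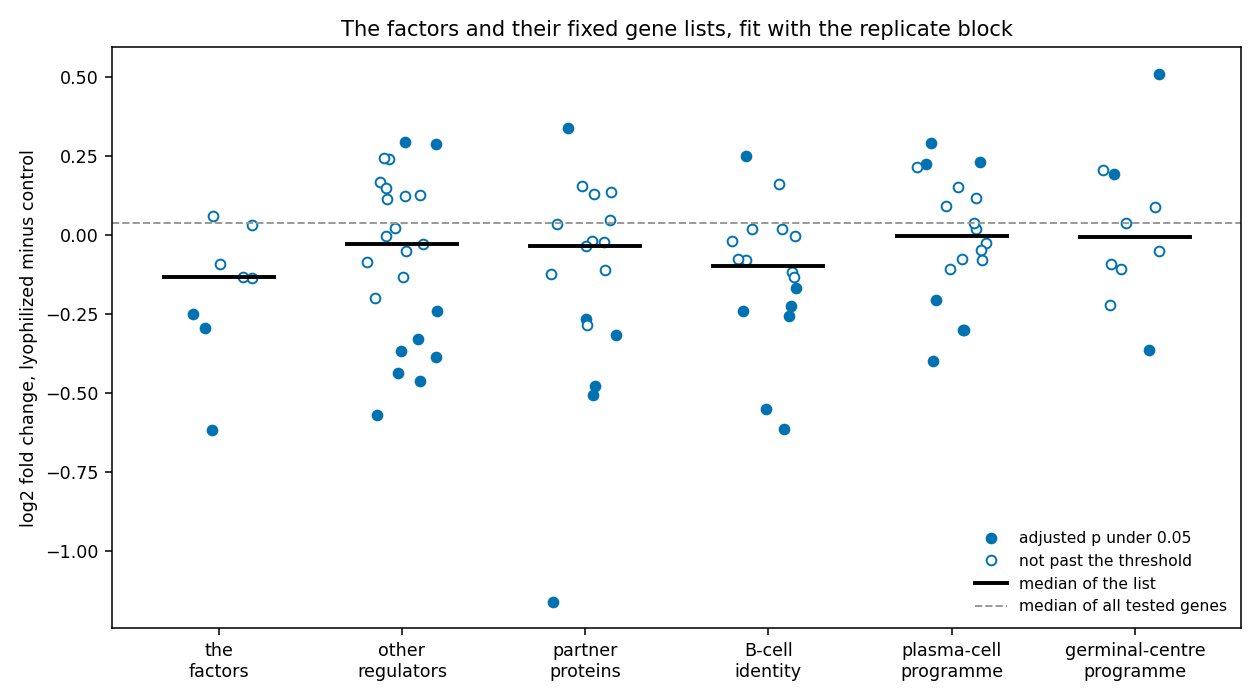
Log2 fold change, lyophilized minus control, in the fit with the replicate block for the tested genes of each list, with filled points past an adjusted p of 0.05, a black line at the list's median and a dashed line at the median of all tested genes, 0.039. The factors have a median of -0.13, the lowest of the 6 lists shown.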

How the data were processed

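Poly(A) RNA-Seq libraries of 3 control and 3 lyophilized GM12873 samples were analysed. The authors mapped single reads to hg19 with TopHat 2.0.7 (named TopHat2 in the submitters' processing notes), kept unique alignments and deposited FPKM values from Cufflinks, 1 table per sample. The Cufflinks version and annotation are not given in the sources used here. FPKM carry no read counts; depth behind each value was estimated from the smallest FPKM × length steps of olfactory receptor genes, and estimated reads are approximate and cover counting error only.

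From the 24934 records, the record with the highest mean FPKM was kept for each of 23284 symbols, and 1624 small RNA symbols were removed. Genes with a mean FPKM above 1 in either group were tested with limma 3.58.1 (R 4.3.3) after adding 0.1 to FPKM and taking log2. The fit modelled a trend of variance with the mean, and p-values were adjusted by Benjamini-Hochberg over 11134 genes (threshold 0.05). This understates changes of low genes. The fit had no term for the pair, as in the study's own test. Samples were paired by the replicate number in their labels, and the study describes 3 pairs. Deviations from the group means correlated within pairs 1, 2 and 3 (r = 0.716, 0.603 and 0.476), so the fit with the replicate block is given where it changes a call. GC correction subtracted a loess curve (span 0.3, degree 2) over the longest transcript's GC content in each sample, for the 87.0% of tested genes with a GENCODE transcript. Fits were tested on simulated data. Tables were made in pandas 2.3.3 (Python 3.11.15, scipy 1.17.1) and plots in matplotlib 3.10.9.

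The 10 factors, the gene lists and the tests were chosen with earlier results of these data known. Genes named from each list are the 3 of highest mean FPKM and up to 4 in each direction with the largest log2 fold change among those called with the block, and the 2 of highest r with 4 factors. TCF12, BATF3, HDAC3, BLNK, CD79B, CD27, TXNDC5 and PRDX4 were named after their values were seen. A few genes that this rule or the marker lists name are not reported here.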

Additional observations from a re-analysis of the deposited data

How the results depend on the processing

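Over all tested genes, 64 were called without the replicate block. The count was 3423 with the replicate block, 3574 and 3510 with the block after median ratio scaling or quantile normalization, 1666 with the block and GC correction, 918 with the block and GC and length correction, 466 with the block and no filter on low values, and 0 with no filter and no block, where 2069 genes had an unadjusted p under 0.05 by limma. Leaving out 1 sample gave 0 calls, with 885 to 2110 genes at an unadjusted p under 0.05 by limma. Leaving out pair 1, 2 or 3 with the block gave 2205, 5355 and 1257. Of the factors, 0 were called without the block and 3 with it, 1 with GC correction, 1 with GC and length correction, 1 with no filter, 3 with median ratio scaling and 4 with quantile normalization, which added IRF4. Leaving out 1 sample gave 0, with 1 or 2 at an unadjusted p under 0.05 by limma, and leaving out pair 1, 2 or 3 with the block gave 2, 3 and 1, the last being POU2AF1. The block changed no other call among the factors.

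The direction turned for 6 factors. With the block and GC correction the log2 fold change was 0.076 for SPI1, 0.053 for SPIB and -0.14 for EBF1, and with length corrected too it was 0.12 for SPIB, -0.13 for EBF1 and 0.0079 for PAX5. Quantile normalization gave -0.019 for IRF8 with or without the block. Leaving out samples or pairs gave -0.27 to 0.055 for IRF4, -0.057 to 0.13 for IRF8, -0.33 to 0.055 for SPIB and -0.17 to 0.29 for EBF1, with -0.082 for EBF1 in the block fit without pair 1. POU2AF1 ranged from -0.70 to -0.49 over the 23 alternatives. The cause of these shifts was not tested.

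The balance of activated over mature factors in the controls, 4.58, was 3.03 with a pseudocount of 1, 5.92 with 0.01, and 1.43 with PAX5 and EBF1 alone. Its lyophilized minus control difference, -0.18, was -0.39 with a pseudocount of 0.01 and 0.0041 with PAX5 and EBF1 alone, and -0.37 to -0.045 without 1 sample. Fits with the block in other combinations of scaling and filter, and PAX5 and EBF1 alone, were chosen after seeing the data. By the estimated reads, PRDM1 and EBF1 rest on the fewest of the factors tested.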
